A study of Rattus norvegicus with 4 samples.

Results

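The Schwann cell and satellite glia genes described here are 9 genes of peripheral glia, Lgi4, Pmp22, Prx, Mag, Mal, Gjb1, Sox10, Erbb3 and Apoe, in RNA of laser-captured rat vestibular ganglion cells. They were taken as a list of names, chosen with earlier results of these data known. Every probe whose only annotated gene symbol was on the list was used. Of the 35126 probes of the array, 12 met this rule and 9 of them, for 8 genes, could be read. The single probe of Pmp22, which encodes a small membrane protein of compact peripheral myelin, and 1 of the probes each of Mag and Erbb3 lay in a stretch of the table where names and values could not be paired. A further probe carried the names of both Rxra and Prx and was not used. Of the 9 probes read, 7 probes of 6 genes were bright enough to be tested.

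Vestibular ganglion cells of the rat were stained for calretinin, a calcium-binding protein, cut out by laser, pooled, and their total RNA was put on 1-colour (Cy5) expression arrays. Libraries labelled calretinin-positive (2 arrays) stand for afferents with calyx endings, and libraries labelled calretinin-negative (2 arrays) for dimorphic and bouton afferents, as the series' design text has it. The sample titles give the groups, while the description field calls all 4 samples positive, so the text speaks of libraries labelled positive and of libraries labelled negative. The sources used here do not give strain, age, sex, any treatment or the number of animals in a pool. A captured neuron of this ganglion lies inside a sheath of glia, and the glial content of a pool cannot be read from the labels.

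Schwann cells wrap axons, and the myelinating ones build compact myelin from a small set of membrane proteins. Satellite glia are thin cells that envelop the cell bodies of ganglion neurons, and in the vestibular ganglion many cell bodies carry myelin as well. Both cell types arise from neural crest under the transcription factor Sox10 and depend on neuregulin signals read by the receptor Erbb3. Several of the 9 genes are not exclusive to peripheral glia: oligodendrocytes of the central nervous system also use Sox10, Mag, Mal, Gjb1 and Erbb3, and Apoe is made by astrocytes and macrophages too.

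Array medians lay between 0.990 and 0.992 on the deposited linear intensity scale. Probes with a mean log2 intensity in the lowest 40% were not tested, which corresponds to an intensity of 0.456, and this value is called the dim-probe limit below. Of 21070 probes tested across the array, 64.2% differed, 23.6% being lower and 40.6% higher in the libraries labelled positive, at an adjusted p of 0.05 (limma, Benjamini-Hochberg over all tested probes), so a call alone sets no probe apart. Over all tested probes the log2 change, positive minus negative throughout, had a median of 0.11. Quantile normalization brought it to 0.01 and cyclic loess to -0.01. No label ties the 2 arrays of a group to different animals or captures, so each p-value reflects only array-to-array spread, which may be technical. Precision is limited by having 2 arrays a group, and a permutation of 2 arrays against 2 could not pass a threshold of 0.05. Calb2, the calretinin gene used to choose the cells, had a mean of 309 in the libraries labelled positive against 134 in those labelled negative, in the direction of the titles. Its probe lies in the late part of the table, where the value is read 5 rows after the name, and at its own row the means would be 6.01 against 12.7, so this check of the titles rests on that shift as much as the direction of Sox10 below.

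The promoters of the members that moved are shown first, because 3 members that were lower (Prx, Gjb1 and Mal) and the 1 that was higher (Apoe) can be set side by side. Each window runs from 250 bases before to 50 bases after a gene start, 5′ to 3′ on the gene's strand, from RefSeq on GRCr8. Entries were found for 6 of the 9 genes, Apoe with 3 starts, of which the one farthest upstream is printed. Lgi4, Sox10 and Erbb3 had none. Capitals mark matches to GNGTGGGNG, a form of the site bound by EGR factors, on either strand. The SOX core letters ACAAAG and ACAATG were also searched on either strand.
Prx, chr1:91914171-91914470, plus strand: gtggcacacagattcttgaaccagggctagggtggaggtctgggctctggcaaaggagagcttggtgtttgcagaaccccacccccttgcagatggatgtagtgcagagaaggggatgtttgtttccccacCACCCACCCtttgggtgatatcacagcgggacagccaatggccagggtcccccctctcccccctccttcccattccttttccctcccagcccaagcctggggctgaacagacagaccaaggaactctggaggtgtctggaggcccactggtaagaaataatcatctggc
Gjb1, chrX:70541595-70541894, plus strand: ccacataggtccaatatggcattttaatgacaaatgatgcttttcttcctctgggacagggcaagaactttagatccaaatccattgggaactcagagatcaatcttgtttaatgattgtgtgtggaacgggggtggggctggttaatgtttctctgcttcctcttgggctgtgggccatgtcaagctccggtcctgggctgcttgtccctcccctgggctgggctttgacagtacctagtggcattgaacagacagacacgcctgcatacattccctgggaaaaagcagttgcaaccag
Mal, chr3:135341374-135341673, minus strand: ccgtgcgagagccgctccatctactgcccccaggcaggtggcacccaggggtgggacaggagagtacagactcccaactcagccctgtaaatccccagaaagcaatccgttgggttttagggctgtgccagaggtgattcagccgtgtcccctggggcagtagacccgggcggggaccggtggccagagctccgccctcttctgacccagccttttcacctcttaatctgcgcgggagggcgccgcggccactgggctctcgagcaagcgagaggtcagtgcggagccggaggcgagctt
Apoe, chr1:88485767-88486066, minus strand: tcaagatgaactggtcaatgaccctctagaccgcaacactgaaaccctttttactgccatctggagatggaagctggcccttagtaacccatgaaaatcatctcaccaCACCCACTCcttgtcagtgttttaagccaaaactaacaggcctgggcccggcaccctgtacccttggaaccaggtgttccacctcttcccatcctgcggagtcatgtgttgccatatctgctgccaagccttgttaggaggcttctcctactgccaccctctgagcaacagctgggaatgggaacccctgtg
The Prx window held 1 GNGTGGGNG match, 119 bases before the start, and this Apoe window held 1, 142 bases before it, both on the opposite strand. The windows of Gjb1 and Mal held no match to any of the 3 letter strings, nor did the other Apoe windows. The Mag window, not printed, held 1 ACAAAG, 152 bases before the start. Over 33469 windows of 300 bases, 12.9% held GNGTGGGNG and 29.1% held ACAAAG or ACAATG. With so few windows, and none for Lgi4 and Sox10, the search could not show whether the letters separate lower members from the higher one. These matches say nothing of binding.

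In all, 5 probes, 1 each of Lgi4, Sox10, Gjb1, Prx and Mal, were lower in the libraries labelled positive, and both probes of Apoe were higher. The lower members ranged from a 28.3-fold difference for Lgi4 to a 1.58-fold difference for Mal. Of the 7 tested member probes, 5 were lower against 23.6% of all tested probes, 2 were higher against 40.6%, 3 were at least 2-fold lower against 7.07%, and 1 was at least 2-fold higher against 8.28%. The 7 of 7 that differed compare with 64.2% of all tested probes. Their median log2 change was -0.89, beside 0.11 for all tested probes. The members were chosen with earlier results of these data known, so these shares describe them and are no independent test. The arrays of the 2 groups did not overlap for any of the 7, as for 31.9% of tested probes on the lower side and 49.8% on the higher. In pooled tissue, fewer glial cells in a capture and less RNA per glial cell cannot be told apart.

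**Figure D1:**
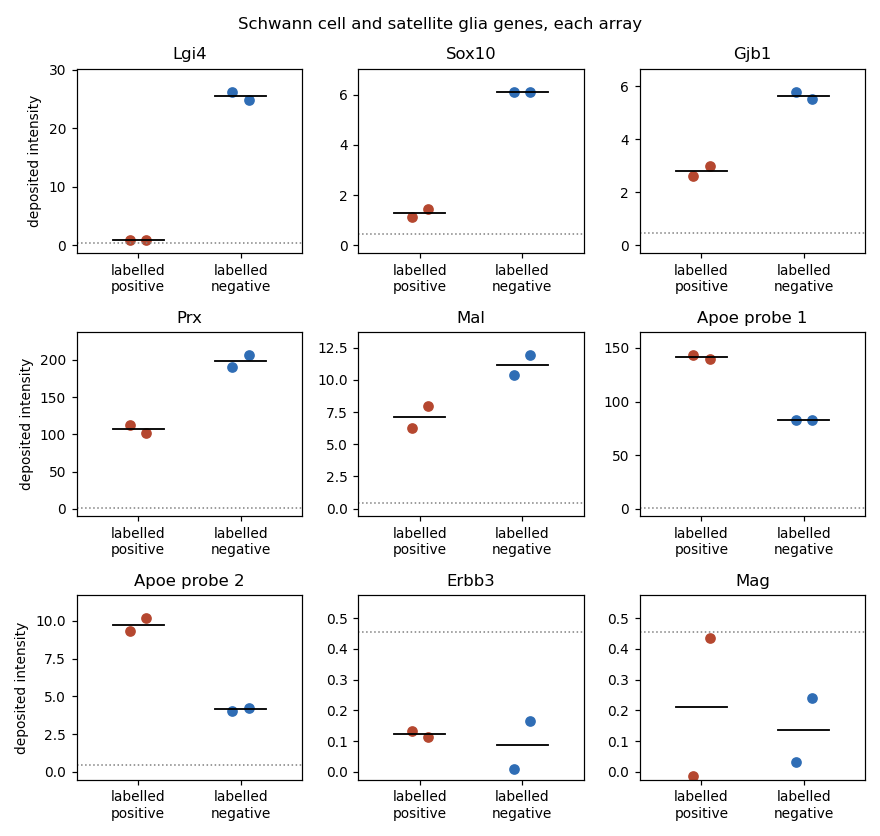
Deposited intensity (vertical axes, linear, one scale per panel) of each of the 9 member probes read. Points are the 2 arrays of a group, labelled positive left and labelled negative right, black bars are group means and the dotted line is the dim-probe limit of 0.456. For Lgi4, Sox10, Gjb1, Prx and Mal both arrays labelled positive lie below both labelled negative, for Apoe they lie above, and Erbb3 and Mag stay under the limit on every array.

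Lgi4 encodes a secreted protein of peripheral glia that acts through the receptor Adam22 on axons and is needed for timely myelination in mice. Its intensity was 0.923 and 0.878 in the libraries labelled positive, against 26.2 and 24.8 in those labelled negative. Both arrays labelled positive were low, near the array median, and neither came close to the other group. Lgi4 fell by 4.82 on the log2 scale (± 0.07 SE, 95% interval -4.99 to -4.66, adjusted p = 3.2e-10, limma, Benjamini-Hochberg). A log2 change this low or lower was found for 0.185% of the probes tested.

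Sox10, the transcription factor that glia of the neural crest need throughout life, had 1.13 and 1.46 in the libraries labelled positive and 6.09 and 6.12 in those labelled negative. The arrays labelled negative were nearly equal, and both arrays labelled positive lay well below them but above the dim-probe limit. It was 4.76-fold lower in the libraries labelled positive, or -2.25 ± 0.11 (SE) on the log2 scale (adjusted p = 2.7e-07, limma, Benjamini-Hochberg). Its probe is the single member in the late part of the table, where the value is read 5 table rows after the name. At its own row the listed values would be 21.5 and 21.3 against 16.4 and 17.4, a log2 change of 0.35, so the direction for Sox10 rests on that shift.

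The shift was checked with control probes printed repeatedly on the array. Repeats within the early part had nearly equal levels (r = 0.998 across 28 pairs of probes, which share arrays and are not replicates). Repeats in the late part correlated with the early ones at r = 0.140 at their own rows and at r = 0.938 when read 5 rows later (54 pairs). The other 8 member probes read lie in the early part and do not depend on the shift. Genes named below with a late-part probe do, among them Nrg1, Drp2, Ncmap, Egr2, Fa2h, Cldn11, Vwf, Pecam1, C1qa and C1qc.

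Erbb3, the neuregulin receptor of Schwann cells and their precursors, gave no usable signal at the probe that could be read. It had 0.134 and 0.113 in the libraries labelled positive and 0.0111 and 0.166 in those labelled negative, all under the dim-probe limit. The groups overlapped, and no fold is given. Of the genes that pair with it, Erbb2, the kinase partner of Erbb3, had a mean of 1.61 against 2.52 (log2 change -0.65, adjusted p = 0.000163, limma, Benjamini-Hochberg), and Nrg1, which encodes neuregulin ligands, had 0.329 against 0.181, also under the limit. Erbb2, Nrg1 and the partner genes Drp2 and Egr2 below were picked for their known pairing with a member after their values were seen.

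Prx and Mal encode proteins of the myelinating Schwann cell. Prx encodes periaxin, a scaffold that links the outer Schwann cell membrane to the basal lamina and stabilises myelin in mice and people. It had 113 and 101 in the libraries labelled positive, against 191 and 207 in those labelled negative. All arrays were far above the dim-probe limit, so periaxin transcript was clearly measured in the libraries labelled positive as well, at a level 1.86-fold lower. The log2 change was -0.89 ± 0.08 (SE; adjusted p = 1.0e-05, limma, Benjamini-Hochberg). Drp2, whose protein binds periaxin, had 0.310 in the libraries labelled positive, under the limit, and 0.842 in those labelled negative.

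Mal, a proteolipid that sorts membrane cargo to myelin and to the apical surface of epithelia, had 6.24 and 7.98 in the libraries labelled positive and 10.4 and 11.9 in those labelled negative. Relative to the group difference, the arrays of each pair lay farther apart for Mal than for the other tested members, and the gap between the groups was only a little wider than the spread within them. Its change of -0.66 ± 0.11 (SE) on the log2 scale (adjusted p = 0.000715, limma, Benjamini-Hochberg) did not pass when each probe was tested on its own spread (adjusted p = 0.138), and passed in every other setting run. Mag encodes a glycoprotein on the innermost myelin membrane, facing the axon. Its readable probe had -0.0119 and 0.436 in the libraries labelled positive and 0.0334 and 0.241 in those labelled negative, all under the limit and overlapping.

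Gjb1 encodes connexin 32, which forms channels through the uncompacted layers of Schwann cell myelin, and also channels of hepatocytes and oligodendrocytes. It had 2.63 and 2.98 in the libraries labelled positive, against 5.80 and 5.50 in those labelled negative. The groups were well apart, with the arrays of each pair close together. Gjb1 was 2.02-fold lower in the libraries labelled positive, or -1.01 ± 0.08 (SE) on the log2 scale (adjusted p = 5.1e-06, limma, Benjamini-Hochberg).

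Apoe, the lipid carrier protein that satellite glia, astrocytes and macrophages secrete, went the other way at both of its probes. The brighter probe had 143.5 and 139.8 in the libraries labelled positive, against 83.0 and 82.4 in those labelled negative. The dimmer one had 9.32 and 10.2 against 4.05 and 4.22. Neither probe showed any overlap between the groups. The log2 changes were 0.78 ± 0.07 (SE; adjusted p = 7.5e-06) and 1.24 ± 0.07 (SE; adjusted p = 6.6e-07, limma, Benjamini-Hochberg), and their 95% intervals, 0.62 to 0.93 and 1.07 to 1.40, did not overlap, so the probes differed in size and not in direction. A log2 change as high as that of the brighter probe or higher was found for 13.3% of the probes tested, and for the dimmer probe for 5.40%.

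**Figure D2:**
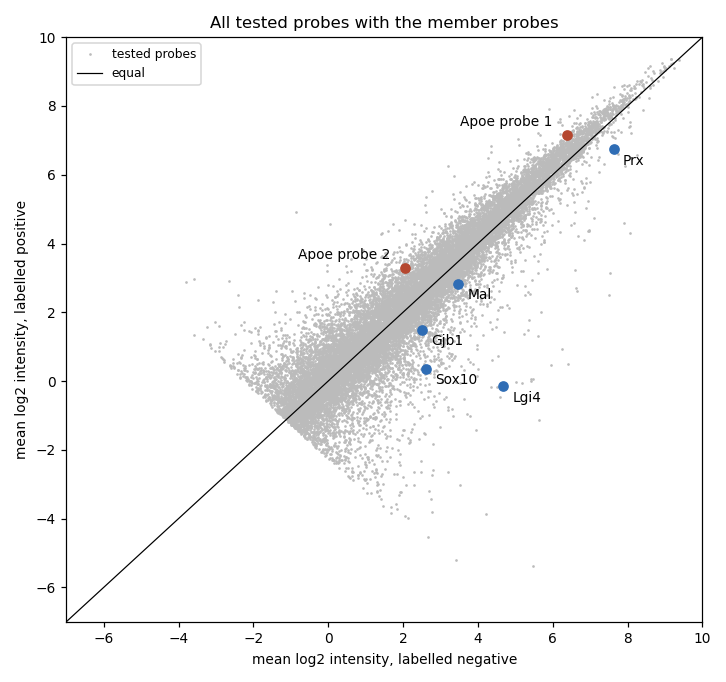
Mean log2 intensity of every tested probe in the libraries labelled positive (vertical) against those labelled negative (horizontal), with the 7 tested member probes marked and the line of equal levels drawn. Lgi4 lies farthest below the line (log2 change -4.82), Sox10 next, Gjb1, Prx and Mal closer to it, and both Apoe probes lie above it.

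Quantile and cyclic loess normalization, which centre the array-wide change near 0, kept all 7 directions and calls. The lower members then moved further from 0, Prx to -1.10 with quantile and -1.17 with loess, and the brighter Apoe probe came nearer to it, at 0.54 and 0.51. The 95% intervals of Gjb1, Prx and Mal overlapped one another, those of Lgi4 and Sox10 overlapped with none of the other members, and no test of the differences between members was made.

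**Figure D3:**
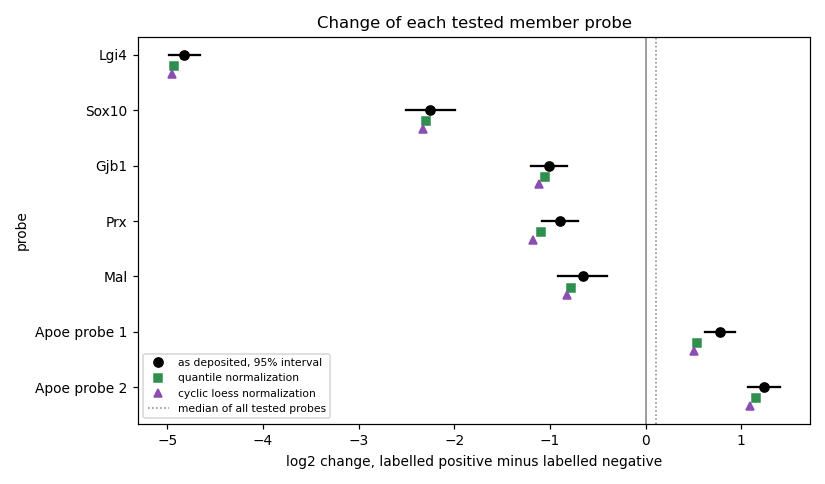
Log2 change (horizontal axis, labelled positive minus labelled negative) of each tested member probe. Circles with bars are the deposited values with 95% intervals, squares follow quantile and triangles cyclic loess normalization, and the dotted line is the median of all tested probes (0.11). The direction of each probe is the same in the 3 settings.

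Other genes of peripheral myelin and the Schwann cell surface were mostly lower as well. Of 30 genes on the list 23 were read and 22 tested, 11 of them in the early part of the table: in the libraries labelled positive 14 fell and 3 rose, and 5 did not pass, with a median log2 change of -0.89 beside 0.11 for all tested probes. The counts were 15 and 3 with quantile and 15 and 2 with loess normalization. Mbp, a protein of the cytoplasmic face of myelin in both nervous systems, had 1.56 and 1.54 against 13.4 and 13.4. Ncmap, a small membrane protein of peripheral myelin, had 2.15 and 2.22 against 8.59 and 8.40. For both genes the groups were far apart and the paired arrays nearly equal, with log2 changes of -3.11 and -1.96. The 3 that rose were Nfasc (0.43), an adhesion protein of the node and paranode, Emp1 (0.39) and Emp3 (0.29), relatives of Pmp22, and Emp3 did not pass with loess normalization.

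Partners of Lgi4 and the ErbB receptors were split: of 7 tested, 4 rose and 3 fell (3 rose with quantile normalization), with a median log2 change of 0.39. Among all tested probes 40.6% were higher and 23.6% lower. Egfr, the growth factor receptor related to Erbb3, had 28.0 and 27.9 in the libraries labelled positive against 9.12 and 8.77 in those labelled negative. Lgi2, a secreted relative of Lgi4, had 15.3 and 12.5 against 5.98 and 5.004. Both were thus higher on each array labelled positive, by log2 changes of 1.64 and 1.34, the reverse of Lgi4. Adam22, the axonal receptor of Lgi4, was not analysed here.

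Of 9 tested transcription factors of Schwann cells and their precursors, 3 fell, 3 rose and 3 did not pass, with 4 lower and 2 higher after quantile and 5 lower and 2 higher after loess normalization. Zfp24, a zinc finger factor of myelinating glia in mice, had 1.64 and 1.83 against 3.59 and 3.54. Egr1, an immediate early gene also found in immature Schwann cells, had 16.6 and 17.1 against 10.3 and 9.21. Egr2, the factor that switches on peripheral myelin genes together with Sox10, had 31.0 and 32.6 against 31.3 and 31.3. The groups overlapped for Egr2 (log2 change 0.02, adjusted p = 0.802, limma, Benjamini-Hochberg), and it was called lower after quantile (-0.21) and loess (-0.19) normalization.

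Of 10 other satellite glia and non-myelinating Schwann cell genes tested, 5 fell, 2 rose and 3 did not pass (6 fell with loess normalization), with a median log2 change of -0.24. The shares among all tested probes were 23.6% lower and 40.6% higher. Gfap, an intermediate filament protein of astrocytes that some satellite glia and non-myelinating Schwann cells also make, had 1.10 and 0.991 against 42.8 and 46.2. S100b, a calcium-binding protein of most glia, had 3.33 and 3.85 against 8.84 and 8.55. Cdh19, read but not tested, had 0.0932 and 0.0972 in the libraries labelled positive, under the dim-probe limit, against 0.880 and 0.765. Tgfb1, also not tested, was under the limit on every array. The 2 that rose were L1cam and Vim, by log2 changes of 0.80 and 0.59, and both are also made by other cells of the ganglion.

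Among 13 tested apolipoprotein, receptor and lipid transport genes 8 fell and 5 rose, with the same counts after either normalization and a median log2 change of -0.40. Of all tested probes 23.6% were lower and 40.6% higher. Clu, an extracellular chaperone that like Apoe is carried on lipoproteins, had 67.9 and 70.7 in the libraries labelled positive against 31.6 and 33.8 in those labelled negative. Pltp, a phospholipid transfer protein, had 1.602 and 1.77 against 6.03 and 4.75. So Clu was higher like Apoe (log2 change 1.09), and Pltp was lower (-1.67). The apolipoprotein genes Apoc4, Apoc2 and Apoc1 went the other way from Apoe, at 11.3 against 21.4, 2.36 against 3.12 and 0.373 against 1.36. They were lower with the deposited values and after both normalizations. Probes of Clu, Pltp and these apolipoprotein genes lie in the late part of the table, so their values rest on the 5-row shift. Of 6 other connexin genes tested 1 rose, 1 fell and 4 did not pass, with the same counts after either normalization. The shares of all tested probes to set beside them are again 40.6% higher and 23.6% lower. Gjb6, connexin 30, had 179 and 191 against 126.5 and 124.5, and Gja4, connexin 37 of vessel walls, 4.21 and 3.54 against 4.93 and 4.36. The fall of Gja4, at a log2 change of -0.26, was smaller than that of Gjb1.

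**Figure D4:**
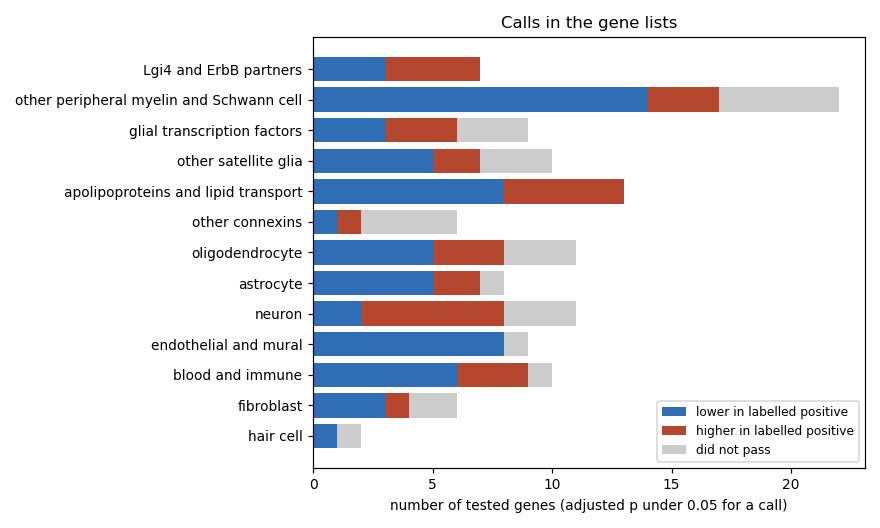
Number of tested genes (horizontal axis) in each list that were lower or higher in the libraries labelled positive at an adjusted p of 0.05, or did not pass. The peripheral myelin list has 14 lower, 3 higher and 5 that did not pass, and in the neuron list 6 are higher and 2 lower.

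Genes of other cell types moved in the same libraries, and their part in the values of the members was not tested. Of 11 tested oligodendrocyte genes 5 fell, 3 rose and 3 did not pass (6 fell after either normalization), beside 23.6% lower and 40.6% higher among all tested probes, and the list's median log2 change was -0.07. Its summed intensity was 248 and 243 in the libraries labelled positive against 563 and 566 in those labelled negative, and nearly all of that gap came from 3 genes. Tf, the iron carrier transferrin, had a mean of 8.87 in the libraries labelled positive against 185 in those labelled negative. Mobp and Mog, proteins of central myelin that Schwann cells hardly make, had 1.90 and 1.0001 in the libraries labelled positive and 76.6 and 42.9 in those labelled negative. The 3 that rose were Aspa, Omg and Nkx6-2, by log2 changes of 0.89, 0.61 and 0.43, and they rose after either normalization too. Cldn11, a tight junction protein of central myelin, had 184.5 against 194 and did not pass, nor did Opalin and Gpr37, but Cldn11 was called lower after either normalization. Fa2h and Ugt8, which also fell, had 4.18 and 5.41 in the libraries labelled positive against 23.4 and 11.1 in those labelled negative. Olig2, a transcription factor of the oligodendrocyte lineage, was under the dim-probe limit in every library. Olig1, also not tested, had 0.0787 and 0.107 in the libraries labelled positive, under the limit, against 0.598 and 0.572 in those labelled negative. The oligodendrocyte list as a whole thus did not move one way. All 5 that fell were at least 2-fold lower, and none of the 3 that rose was 2-fold higher.

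Of 8 tested astrocyte genes 5 fell and 2 rose, with the same counts after either normalization, sums of 445 and 484 against 593 and 571 and a median log2 change of -0.44. Among all tested probes 23.6% were lower and 40.6% higher. Aqp4, the water channel of astrocyte endfeet, had 0.473 against 50.1. The 2 that rose were Slc4a4, a bicarbonate transporter, and Gjb6, by log2 changes of 0.74 and 0.56.

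Endothelial and mural genes fell in 8 of 9 tested, beside 23.6% of all tested probes, with a median log2 change of -1.37. Their sums were 33.7 and 34.2 against 88.4 and 92.4, and Vwf (6.99 against 33.3) and Pecam1 (2.30 against 8.72) were among them. Of these 9 genes 3 lie in the early part of the table, and the values of Vwf and Pecam1 rest on the 5-row shift. Of 10 tested blood and immune genes 6 fell, 3 rose and 1 did not pass (1 rose after either normalization). Among all tested probes 23.6% were lower and 40.6% higher, and the median log2 change of the list was -1.10. All 6 blood and immune genes that fell were at least 2-fold lower, and the list's sums were 134 and 138 against 240.4 and 249.9. The medians of the vessel list and of the blood and immune list both lay below the -0.89 of the peripheral myelin list. The complement genes C1qa and C1qc, made by macrophages, had 3.66 and 1.08 in the libraries labelled positive against 15.1 and 3.997 in those labelled negative. The others that fell, C1qb, Alas2, Csf1r and Tyrobp, had log2 changes of -1.85, -1.34, -1.20 and -1.01. They were lower with the deposited values and after both normalizations. Other genes of macrophages went up, by smaller changes. Cd68, a lysosomal protein, had 3.96 against 2.93 (log2 change 0.43) and was higher with the deposited values and after both normalizations. Cd14, a receptor for bacterial lipopolysaccharide, had 12.9 against 10.4 (0.31) and did not pass after either normalization. Ptprc, made by most blood cells other than red cells, also rose but did not pass after either normalization, and Itgam passed in none of the 3 settings. Of 6 tested fibroblast genes 3 fell and 1 rose, beside 23.6% lower and 40.6% higher among all tested probes. Ogn had 117 against 55.1 but Dcn 8.48 against 16.5. Fbln2, which also fell, was under the dim-probe limit on each array labelled positive. Of 2 tested hair cell genes Ush1c fell (3.97 against 5.29) and Otof, at 4.47 against 4.89, did not pass, and both fell after loess normalization.

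Neuron genes rose in 6 of 11 tested, beside 40.6% of all tested probes, and fell in 2, beside 23.6%, with a median log2 change of 0.22 and sums of 989 and 1009.5 against 877 and 883. After quantile or loess normalization 3 rose and 3 fell. Nefm and Nefh, neurofilament subunits, had 102 and 3.87 in the libraries labelled positive against 68.3 and 1.26 in those labelled negative. The 2 that fell were Ntrk2, a neurotrophin receptor that glia also express, at 9.18 against 19.9, and Elavl4, an RNA-binding protein of neurons, at 0.752 against 1.39, and both were lower in all 3 settings. Neurofilament transcripts, used here as markers of neurons in general, were thus measured in all libraries, while the Snap25 probe was under the dim-probe limit on every array.

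Likeness to Lgi4 and to the brighter Apoe probe was measured over the 4 arrays as the distance between log2 values centred on their mean, among 8166 named genes, and with 4 arrays it says little beyond the size of the group difference. The 5 genes closest to Lgi4 were Cdh23, Slc12a5, Tf, Vsir and Mobp, at distances of 0.03 to 0.54. Cdh23 and Vsir had means of 0.143 and 0.165 in the libraries labelled positive, under the dim-probe limit. The values of Cdh23 and Slc12a5 rest on the 5-row shift. Tf and Mobp are strongly expressed by oligodendrocytes, Slc12a5 is a chloride transporter of neurons, and Cdh23 is known from hair cells. The 5 closest to Apoe were Ndufv3, Albfm1, Nudt19, Map2k3 and Rapgefl1, at distances of 0.01 to 0.02. None of these 5 is on a glial list used here, and the values of Ndufv3 and Map2k3 rest on the 5-row shift.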

How the data were processed

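Total RNA of laser-captured cells was measured on 4 arrays, 2 a group, grouped by sample title. The authors deposited a value table of linear probe intensities, which appear scaled to each array's median. The sources used here do not state the centring, background correction or normalization behind them. Entries of -9999 counted as missing. These, and values at or under 0 (532 to 776 on an array), took the 1st percentile of that array's positive values before log2.

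Probe names came from the series' platform annotation, and a GRCr8 gene table supplied current symbols by gene ID: 16677 probes had 1 symbol, of which 16649 had their gene ID in the table, 163 had several and 18286 none. Names up to probe ID 144112 were read at their own row and names from 185001 on 5 table rows later, and the 2010 single-symbol probes between were left out. No build is named for the probes, so only promoter windows carry coordinates. Probes with a mean log2 below the 40th percentile were left out, and where a group lies under that limit no fold is printed.

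Differences were tested with limma 3.58.1 under R 4.3.3 (lmFit, then eBayes with an intensity trend, two-sided, Benjamini-Hochberg over 21070 probes, threshold 0.05), which was first tested on simulated data. The members and gene lists were chosen with earlier results of these data known. Named besides the members are the 2 genes of each list with the smallest p, defining markers of cell types, the 5 genes nearest in pattern to Lgi4 and to Apoe, and, after their values were seen, those the text says so of and the members of a list that moved against it or did not pass. Further genes that moved in the oligodendrocyte, immune, lipid, peripheral myelin, transcription factor and fibroblast lists, and some genes not tested, were also named after their values were seen. A listed gene with several probes is given by its brightest, and members by every probe. Replicate number as a block was checked: the deviations of same-numbered arrays were uncorrelated (r = 0.000316 over 21070 probes). Figures were drawn with matplotlib 3.10.9.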

Additional observations from a re-analysis of the deposited data

How the results depend on the processing

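Directions and calls of the 7 tested member probes were recomputed in 16 other settings, which gave 112 values. Of these 110 kept their direction and their side of the threshold. Settings that change only the filter, the variance model or the block leave the log2 change as it is, so there only the call could move. Reading all names at their own row changes nothing for members in the early part. Mal lost its call when each probe was tested on its own spread (adjusted p = 0.138, limma's fit without moderation, Benjamini-Hochberg), a test that also called 7082 probes in all in place of 13530, and Sox10 turned to a log2 change of 0.35 with all names read at their own row. For Sox10 that setting reads a different table row, and the cause for Mal was not tested. With each array left out in turn there were 12262 to 12764 calls over all probes, 5 to 5 member probes lower and 2 to 2 higher, with the lone array assumed to vary like the other group. The log2 change over the 15 settings that keep the reading rule lay between -4.95 and -4.21 for Lgi4, -2.43 and -1.89 for Sox10, -1.12 and -0.90 for Gjb1, -1.17 and -0.82 for Prx, -0.83 and -0.48 for Mal, 0.51 and 0.80 for the brighter Apoe probe and 1.09 and 1.30 for the dimmer. The share of calls that were higher, 63.3% over all probes, became 53.5% with quantile and 49.6% with loess normalization. With replicate number as a block 13711 probes were called, 5 member probes lower and 2 higher, and it changed no member call. Same-numbered arrays are not treated as pairs. Erbb3 and Mag could not be compared because their readable probes lie under the dim-probe limit.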

Other observations

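The 3 member probes between the readable parts of the table have 2 possible readings each, given here as values and used in no comparison; this was chosen after the data were seen. Pmp22 was listed at 0.0960 and 0.0269 in the libraries labelled positive and 0.0748 and 0.136 in those labelled negative at its own row. At 5 rows later the values were 140.5 and 157 against 275 and 267.0. The second Erbb3 probe had 17.7 and 17.1 against 17.4 and 18.3 at its own row, and 6.83 and 7.51 against 6.18 and 6.46 at 5 rows later. The second Mag probe had 13.4 and 13.3 against 32.2 and 37.2 at its own row, and 21.5 and 19.4 against 22.0 and 25.3 at 5 rows later.

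Probes of abundant gene families (ribosomal, respiratory chain, proteasome, tubulin and similar genes) give a further value on the 2 readings. In the early part their median log2 level was 2.93 at their own row and -0.24 at 5 rows later (117 probes), and in the late part 0.35 and 3.55 (109 probes). Between the parts, 28 such probes in the second stretch, where Pmp22 and the second Erbb3 probe lie, had 0.25 and 4.57, and 6 in the first stretch, where the second Mag probe lies, had 1.46 and -1.04. The split into stretches was set after these values were seen.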
